A study of Mus musculus with 5 samples.

Results

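Antibody genes of germinal center B cells mutate because activation-induced deaminase (AID) turns cytosines into uracils, which repair enzymes then process with errors. The genes described here encode 7 of those enzymes, Ung, Apex1, Apex2, Msh6, Pms2, Exo1 and Polh, chosen by their known function. Each of them had 1 row among the 38924 genes of the deposited table, and all 7 were expressed highly enough to be tested. RNA came from germinal center B cells sorted from the spleens of 12-week-old mice on day 7 of a response to injected sheep red blood cells. DKO libraries (n = 2) came from relbfl/flnfkb2fl/flCg1-Cre mice, in which both genes of the alternative NF-κB heterodimer are floxed, and WT libraries (n = 3) from Cg1-Cre littermates. Both groups carry the Cre transgene, which is driven from the IgG1 constant region locus, so recombination starts only once a B cell transcribes that locus. The series title calls the sorted cells eGFP+. The labels do not say whether each library came from a separate mouse, so the p-values below rest on the spread between these 5 libraries. In the main test, limma, the variance of each gene was also drawn towards a trend over all genes tested. The question addressed is whether transcripts of hypermutation repair differ between cells of these genotypes.

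The uracil left by AID can be handled in several ways. In the base excision branch, UNG removes the uracil and an endonuclease, APEX1 or APEX2, cuts the backbone at the abasic site that remains. In the mismatch branch, a heterodimer that contains MSH6 recognises the U:G mismatch, PMS2 contributes a nicking activity, EXO1 resects the strand, and DNA polymerase eta, encoded by Polh, fills the gap with errors that fall mostly at A:T pairs. Outside the germinal center the enzymes other than polymerase eta help keep the genome free of uracil and mismatches. Several of the enzymes named here are made mostly in dividing cells.

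Libraries held between 34.0 M and 57.6 M reads, of which 15.4 M to 17.7 M lay outside mitochondrial genes. Mitochondrial reads were fewest in DKO replicate 1 (17452379) and WT replicate 2 (18492924). They numbered 30577482 in DKO replicate 2, 29487690 in WT replicate 1 and 42104773 in WT replicate 3. Values are read counts that the authors divided by a scaling factor per library, called normalized counts here. Relb kept 40.2% of its WT mean in DKO replicate 1 and 7.59% in DKO replicate 2, and Nfkb2 kept 52.5% and 13.0%. Their log2 fold changes were -2.43 ± 0.63 and -1.91 ± 0.51 (SE). Neither of these floxed genes passed over all genes (adjusted p = 0.823 for each, limma). Of 7 germinal center B cell markers 6 were high enough to be tested, with a summed level of 40442 and 38035 normalized counts in DKO, against 51340, 35993 and 39914 in WT. Mybl1 gave the largest part of that sum in each library and was the 1 of the 6 with a positive log2 fold change (0.21 ± 0.27, SE). Rgs13, a regulator of G protein signaling in these cells, had 1476 and 1990 normalized counts in DKO, against 8381, 3777 and 4727 in WT, with a log2 fold change of -1.63 ± 0.33 that did not pass over all genes (adjusted p = 0.768, limma). Mef2b, a transcription factor of these cells, was listed at 0 in all 5 libraries. Transcripts of other lymphocytes were uneven. The summed level of 8 T cell markers was 389 and 109 normalized counts in DKO replicates 1 and 2, against 93.1, 796 and 56.7 in WT replicates 1 to 3. That of 5 naive B cell markers was 13137 and 6035 in DKO, against 3814, 15107 and 7301 in WT. DKO replicate 1 and WT replicate 2 were therefore the libraries with the most T cell and naive B cell RNA. For the members, fold changes that rest on either are given with and without it. Gene lists beyond the members are given with all 5 libraries only. In bulk RNA, fewer cells of a type and less RNA per cell cannot be told apart.

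None of the 7 genes passed the test as higher or lower in DKO libraries, and 0 of 7 had an unadjusted p under 0.05. The test was limma on log2(value + 1), with Benjamini-Hochberg adjustment over the 13242 genes with a mean of at least 10 normalized counts. It called 0 of all these genes (0%), and at an unadjusted p under 0.05 it picked 803 (6.06%), of which 489 were higher in DKO (3.69%) and 314 lower (2.37%). Log2 fold changes, DKO over WT, ran from -0.32 for Ung to 0.39 for Apex2, with 4 members positive and 3 negative and a median of 0.04. Over all genes tested, 6627 of 13242 were positive and the median was 0.001. DKO and WT values did not overlap in 2 members, Apex2 and Pms2, both with the higher values in DKO; the same held for 12.5% of all genes tested. All DKO values lay below WT in 0 members and in 11.0% of genes, and the groups were apart in either direction in 23.4%. The adjusted p of the members lay between 0.877 and 0.983. The intervals are wide for a comparison of 2 libraries with 3, and each includes no change as well as a change of over 1.5-fold in 1 direction or both.

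**Figure D1:**
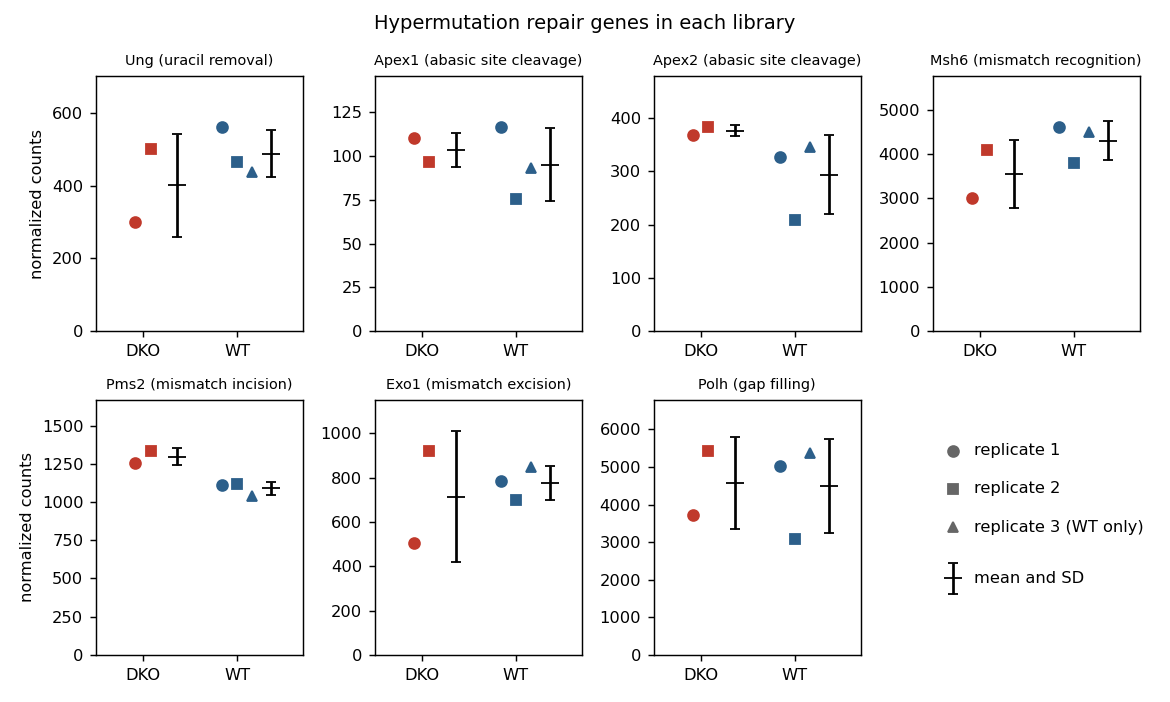
Normalized counts of the 7 genes in each library, on an axis that starts at 0; points are libraries (marker shape gives the replicate number), and the black bar is the mean with SD (DKO n = 2, WT n = 3). DKO and WT points overlap in Ung, Apex1, Msh6, Exo1 and Polh, and DKO points lie above all WT points in Apex2 and Pms2.

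**Figure D2:**
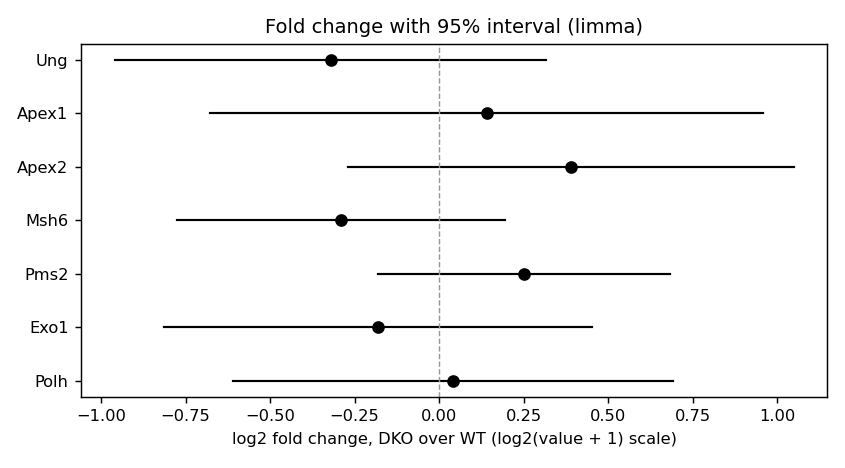
Log2 fold change of each gene, DKO over WT, with its 95% interval from limma, on the log2(value + 1) scale. Every interval spans 0; that of Pms2 is the narrowest, from -0.18 to 0.68, and that of Apex1 the widest, from -0.68 to 0.96.

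The members stood at very different levels. To compare genes, normalized counts were divided by the length of the shortest principal transcript of each gene in GENCODE M21. On this scale Polh averaged 1413 ± 375 normalized counts per kb in DKO and 1388 ± 384 in WT (SD, n = 2 and 3). Msh6 came next, at 835 ± 180 in DKO and 1013 ± 105 in WT. By their mean per kb, Polh was above 94.0% and Msh6 above 90.1% of the 10785 tested genes with such a length. Polh was above Msh6 in each of the 5 libraries; their ranges overlapped in WT and did not in DKO. The other 5 members were several-fold lower. Pms2 averaged 237 ± 10.1 per kb in DKO and 199 ± 7.48 in WT, Ung 187 ± 66.3 and 228 ± 30.5, and Apex2 200 ± 5.47 and 156 ± 39.5, given as DKO and then WT. Pms2 was above Apex2 in each of the 5 libraries, while Ung overlapped with both in DKO and was above Apex2 in WT. Exo1, at 91.5 ± 37.8 per kb in DKO and 99.6 ± 9.66 in WT, and Apex1, at 83.5 ± 7.82 and 76.7 ± 16.7, were lowest and overlapped in both genotypes. Dividing by all annotated exon bases in place of one transcript kept Msh6 and Polh on top, with Msh6 first, and put Apex2 lowest, at 43.0 ± 1.18 in DKO and 33.6 ± 8.51 in WT.

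**Figure D3:**
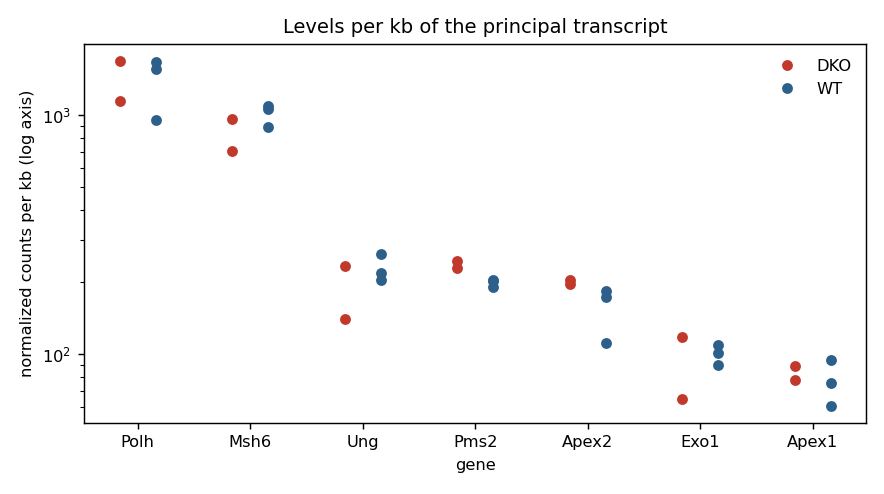
Normalized counts per kb of the shortest principal transcript, on a log axis, for each gene; each point is a library, DKO on the left of each pair and WT on the right. Polh and Msh6 stand apart from the other 5 genes in every library, at 708 per kb or more against at most 263.

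Promoters are shown for Ung and Msh6, the pair of members whose products open the 2 branches and whose levels varied most alike with those of Exo1, and for Pms2, which had the opposite sign of fold change. The sequences are RefSeq's for build GRCm38.p6 (the submitters' processing notes name mm9), from 250 bases before to 30 bases after the annotated start, 5′ to 3′ on the strand of the gene. Capitals mark matches, on either strand, to an E2F motif (TTTCCCGC, TTTCGCGC, TTTGCCGC or TTTGGCGC), the CCAAT box (CCAAT) or the GC box (GGGCGG).
Ung, chr5:114130185-114130464, plus strand: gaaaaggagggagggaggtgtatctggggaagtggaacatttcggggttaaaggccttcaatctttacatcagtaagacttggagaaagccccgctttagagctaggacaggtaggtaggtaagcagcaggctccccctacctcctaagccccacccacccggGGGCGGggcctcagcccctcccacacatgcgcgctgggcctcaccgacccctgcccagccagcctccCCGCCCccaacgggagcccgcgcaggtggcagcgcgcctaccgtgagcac
Msh6, chr17:87974800-87975079, plus strand: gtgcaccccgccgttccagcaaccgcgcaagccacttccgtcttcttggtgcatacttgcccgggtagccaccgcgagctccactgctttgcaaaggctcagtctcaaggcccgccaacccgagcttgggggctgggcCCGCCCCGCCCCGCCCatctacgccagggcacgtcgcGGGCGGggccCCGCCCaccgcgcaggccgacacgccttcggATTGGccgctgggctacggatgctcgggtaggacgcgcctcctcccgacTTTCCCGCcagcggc
Pms2, chr5:143909751-143910030, plus strand: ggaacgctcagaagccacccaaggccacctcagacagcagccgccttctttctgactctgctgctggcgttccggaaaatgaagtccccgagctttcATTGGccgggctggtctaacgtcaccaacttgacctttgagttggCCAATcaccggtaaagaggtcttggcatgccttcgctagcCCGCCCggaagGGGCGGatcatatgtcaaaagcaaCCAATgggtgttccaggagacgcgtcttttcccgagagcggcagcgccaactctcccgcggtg
The Msh6 window held 1 E2F match, TTTCCCGC, that begins 16 bases after the start, with 1 CCAAT box and 5 GC boxes, of which 3 overlap end to end by 1 base. Ung had 2 GC boxes only, and Pms2 had 3 CCAAT boxes and 2 GC boxes. Of all 32851 promoter windows of this length, 2.12% held the E2F motif, 36.1% a CCAAT box and 34.7% a GC box. The κB motif, which NF-κB dimers bind, was searched as GGGRNNYYCC (R is A or G, Y is C or T, N is any base). It was found in 7.94% of all windows and in 0 of the 5 members that have an entry, Ung, Apex1, Msh6, Pms2 and Polh. With so low a share over all windows, 0 of 5 says little about these members. These matches describe letters in the window and do not show binding, and a missing match does not show that binding is absent.

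Ung opens the base excision branch. It had 300 and 501 normalized counts in DKO replicates 1 and 2, against 561, 465 and 436 in WT replicates 1 to 3. DKO replicate 1 was the lowest of the 5 libraries, at 61.6% of the WT mean, while DKO replicate 2 lay inside the WT range, so the groups overlapped. The log2 fold change was -0.32 ± 0.28 (SE; 95% interval -0.96 to 0.32; adjusted p = 0.891, limma). Without DKO replicate 1 it was 0.046, on the other side of 0, and without DKO replicate 2 it was -0.69. Fam72a, whose protein promotes degradation of nuclear UNG in mouse B cells, had 254 and 376 in DKO against 346, 181 and 337 in WT; it was named for that link, outside the naming rule and after its values were seen.

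Apex1, which encodes the main such enzyme of most cells, had 110 and 96.6 normalized counts in DKO, against 117, 75.3 and 93.2 in WT. The DKO values lay within the WT range, and limma gave a log2 difference of 0.14 ± 0.36 at an adjusted p of 0.961, and of -0.014 without WT replicate 2, 0.30 without WT replicate 1, 0.046 without DKO replicate 1 and 0.24 without DKO replicate 2. It rests on 73 to 126 reads per library. In GENCODE M21, 61.7% of the exon bases of Apex1 are also exon of Pip4p1 on the opposite strand, so with no strand information the counting rule can move reads into or out of Apex1. Pip4p1, listed under its older name Tmem55b, had 811 and 730 in DKO and 573, 989 and 780 in WT.

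Apex2 encodes the second, weaker endonuclease, which also interacts with PCNA. It had 369 and 383 normalized counts in DKO, against 327, 208 and 346 in WT. Both DKO libraries were above all WT libraries, and the lowest value, 208, belonged to WT replicate 2. The log2 fold change was 0.39 ± 0.29 (95% interval -0.27 to 1.05; adjusted p = 0.877, limma), and without WT replicate 2 it was 0.16. Apex2 exceeded Apex1 in every library, by 3.34 and 3.97 times in DKO and by 2.80, 2.77 and 3.71 times in WT, as normalized counts not divided by length. The mean log2 ratio was 1.86 ± 0.17 in DKO and 1.61 ± 0.24 in WT (SD, n = 2 and 3; exact permutation test, two-sided p = 0.40, where the smallest p this design allows is 0.20). The order depends on the length used. Per kb of the shortest principal transcript Apex2 stayed above Apex1 in every library, but per kb of all annotated exon bases it turned, with Apex2 at 43.0 ± 1.18 in DKO and 33.6 ± 8.51 in WT and Apex1 at 72.8 ± 6.81 in DKO and 66.9 ± 14.6 in WT. The ratio also carries the overlap of Apex1 with Pip4p1, so it does not settle which of the genes is expressed more.

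Msh6 opens the mismatch branch. It had 3008 and 4092 normalized counts in DKO, against 4616, 3797 and 4506 in WT. DKO replicate 1 was again the lowest library, at 69.9% of the WT mean, and DKO replicate 2 lay within the WT range. The log2 fold change was -0.29 ± 0.21 (95% interval -0.77 to 0.19; adjusted p = 0.877, limma), and it was -0.07 without DKO replicate 1, -0.51 without DKO replicate 2 and -0.38 without WT replicate 2.

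Pms2, the member that varied least over the 5 libraries, had 1258 and 1336 normalized counts in DKO, against 1109, 1117 and 1043 in WT. The DKO libraries were above every WT library, at 115% and 123% of the mean WT level. Its log2 fold change of 0.25 ± 0.19 (95% interval -0.18 to 0.68; adjusted p = 0.877, limma) kept its sign under each of the 17 alternatives tried, with values from 0.21 to 0.31. Because the groups did not overlap, leaving out libraries could not change that sign. Other minimum values and a robust variance fit cannot alter a fold change. The fit with replicate number as a block gave the same value as leaving out WT replicate 3. Libraries of the same genotype differed little in Pms2, by 1.06 times in DKO and by at most 1.07 times in WT. Much of its standard error therefore comes from the variance trend over all genes. Of its exon bases, 5.90% are shared with other genes on the same strand.

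Exo1, the exonuclease, had 505 and 922 normalized counts in DKO, against 784, 697 and 848 in WT. Its DKO libraries were the lowest and the highest of all 5, and DKO replicate 2 was 1.82 times DKO replicate 1, while the WT libraries differed by at most 1.22 times. In limma the fitted log2 difference was -0.18 ± 0.28 at an adjusted p of 0.932, but 0.25 without DKO replicate 1 and -0.61 without DKO replicate 2. The fitted value is thus the mean of libraries that disagree in sign.

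Polh, the error-prone polymerase, had 3718 and 5435 normalized counts in DKO, against 5036, 3074 and 5376 in WT. In each genotype 1 library was low, DKO replicate 1 and WT replicate 2, which are the libraries with the most T cell and naive B cell transcripts. The log2 fold change was 0.04 ± 0.29 (95% interval -0.61 to 0.69; adjusted p = 0.983, limma), and it was 0.32 without DKO replicate 1, -0.21 without WT replicate 2 and -0.23 without DKO replicate 2. With both of the low libraries left out, which leaves 1 DKO library, it was 0.06.

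Differences between libraries of the same genotype exceeded the difference between group means in every member but Pms2, and they fell into a few shapes. Deviations from the mean over libraries, on the log2 scale, were -0.56, -0.40 and -0.54 in DKO replicate 1 for Ung, Msh6 and Exo1, and each of these genes was above its mean in DKO replicate 2. Polh and Apex2 had their largest deviation in WT replicate 2, at -0.52 and -0.61, and so did Apex1, at -0.37. For Pms2 the lowest deviation was -0.164, in WT replicate 3. Among the 21 pairs of members, Msh6 and Exo1 were most alike, with a root mean square difference of 0.15 over the 5 libraries, then Ung and Msh6 (0.15) and Ung and Exo1 (0.18), while Ung and Apex2 were least alike (0.48).

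**Figure D4:**
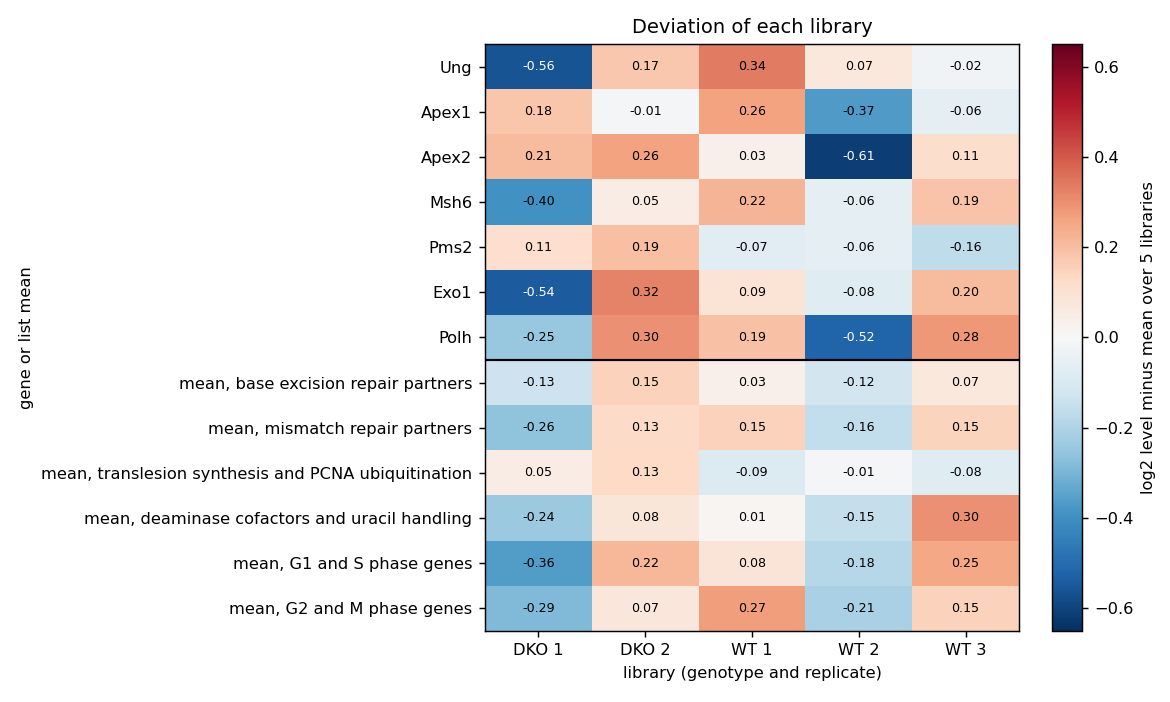
Deviation of each library from the mean over the 5 libraries, as log2(value + 1), for the 7 genes (above the line) and for the mean of 6 gene lists (below it); columns are libraries, DKO first. DKO replicate 1 is low in Ung, Msh6 and Exo1 and in the G1 and S phase list, and WT replicate 2 is low in Apex1, Apex2 and Polh.

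The cell cycle lists were likewise lowest in DKO replicate 1, with WT replicate 2 next. The mean of 27 G1 and S phase genes deviated by -0.36 and 0.22 in DKO replicates 1 and 2, against 0.08, -0.18 and 0.25 in WT replicates 1 to 3. That of 18 G2 and M phase genes deviated by -0.29 and 0.07 in DKO, against 0.27, -0.21 and 0.15 in WT. Taken relative to the G1 and S phase mean, the difference between DKO and WT was -0.20 for Ung, -0.17 for Msh6 and -0.06 for Exo1. It was 0.51 for Apex2, 0.38 for Pms2, 0.26 for Apex1 and 0.17 for Polh. By library, DKO replicates 1 and 2 stood at 0.57 and 0.05 for Apex2 and 0.47 and -0.02 for Pms2. They stood at 0.54 and -0.23 for Apex1 and 0.12 and 0.08 for Polh. For Ung they stood at -0.20 and -0.04, for Msh6 at -0.03 and -0.17 and for Exo1 at -0.18 and 0.11. In DKO replicate 2, Ung, Pms2, Apex1 and Polh lay inside the WT range and Apex2 above it. Exo1 lay just above it there (0.109 against 0.106 in WT replicate 2), and Msh6 below it (-0.17 against -0.06 in WT replicate 3). The part of the cell cycle, and that of the T cell and naive B cell transcripts in DKO replicate 1 and WT replicate 2, in these values was not tested. Nor was that of the lower mitochondrial reads in the same libraries. The 27 genes had a median log2 fold change of -0.17, with 5 positive, 22 negative and 0 called; 4 had the smallest p, namely the cyclin genes Ccne1 (0.64 ± 0.31) and Ccne2 (-0.37 ± 0.23), the chromatin assembly gene Chaf1a (-0.66 ± 0.33) and the thymidylate synthase gene Tyms (-0.52 ± 0.27). Of the 18 genes, 3 were positive, 15 negative and 0 called, with a median of -0.12. The kinetochore genes Cenpe (-0.85 ± 0.29) and Cenpf (-1.01 ± 0.40), the mitotic cyclin gene Ccnb2 (-0.21 ± 0.24) and the checkpoint activator Cdc20 (-0.18 ± 0.26) had the smallest p.

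Partners in base excision repair, 17 listed and 15 tested, also gave no call, with 7 positive and 8 negative log2 fold changes and a median of -0.09. DKO values lay above all WT values in 4 of the 15 and below in 1, beside 12.5% and 11.0% of all genes. Ogg1, the glycosylase for oxidised guanine, had 37.7 and 61.1 normalized counts in DKO against 118, 117 and 88.4 in WT. In limma this was -1.14 ± 0.40 on the log2 scale, at an adjusted p of 0.823. Neil3, a glycosylase for oxidised bases made in dividing cells, had 1234 and 1670 in DKO against 1086, 596 and 903 in WT, or 0.78 ± 0.29 at the same adjusted p (limma). Tdg, which removes thymine or uracil opposite guanine, had 213 and 225 in DKO against 118, 170 and 166 in WT. Lig3, the ligase that works with XRCC1, had 705 and 852 in DKO against 673, 544 and 555 in WT. Polb, the polymerase that fills the gap faithfully, had 186 and 201 in DKO against 153, 105 and 162 in WT; it completes the 4 genes above WT and was named after its values were seen.

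Partners in mismatch repair, with the sliding clamp, its loader and polymerase delta, gave 5 positive and 10 negative of 15, a median of -0.18, no call and 0 of 15 genes whose groups did not overlap, beside 23.4% of all genes. Pcna, the clamp whose ubiquitinated form recruits polymerase eta, had 3297 and 5418 normalized counts in DKO against 5529, 4318 and 5648 in WT. Its log2 difference was -0.28 ± 0.25 at an adjusted p of 0.896 in limma, and DKO replicate 1 was lowest, as for Exo1. The clamp loader gene Rfc4 had the same low library, with 537 and 1127 in DKO against 1050, 847 and 1150 in WT. Pold2, a subunit of polymerase delta, and Rfc3, another clamp loader gene, had log2 fold changes of -0.40 ± 0.28 and 0.33 ± 0.24.

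Translesion polymerases and the enzymes that ubiquitinate PCNA gave 9 positive and 7 negative of 16, a median of 0.06 and no call. DKO values lay above WT in 2 of the 16, beside 12.5% of all genes, and below WT in 0, beside 11.0%. Poli, encoding polymerase iota, had 590 and 618 normalized counts in DKO against 381, 555 and 441 in WT. Poln, encoding polymerase nu, had 48.2 and 43.0 in DKO against 5.35, 33.0 and 22.1 in WT. Polq, the polymerase of theta-mediated end joining, and Shprh, a ubiquitin ligase for PCNA, had overlapping groups and log2 fold changes of 0.46 ± 0.27 and 0.30 ± 0.24. In no member of this list was the adjusted p below 0.864 (limma).

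Genes whose products guide AID or handle uracil gave 3 positive and 7 negative of 10, a median of -0.14 and no call. Ctnnbl1, which binds AID, had 208 and 359 normalized counts in DKO against 388, 358 and 486 in WT. Limma put its log2 difference at -0.57 ± 0.30 and its adjusted p at 0.862. Supt5, the elongation factor that brings AID to paused polymerase, had 1540 and 1669 in DKO against 1797, 1877 and 2456 in WT, and was the 1 gene of the 10 whose DKO values lay below all WT values, beside 11.0% of all genes. Psme3, a proteasome activator linked to AID turnover, and Exosc10, a subunit of the RNA exosome, had -0.27 ± 0.21 and -0.19 ± 0.20.

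**Figure D5:**
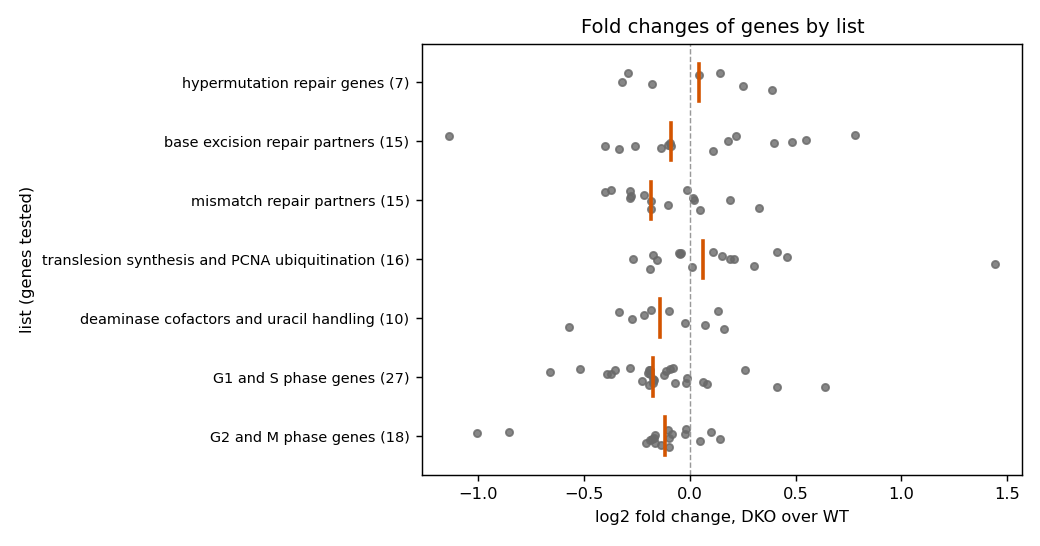
Log2 fold change, DKO over WT, of every tested gene in the hypermutation repair group and 6 related lists; each point is a gene, the orange bar is the list's median, and the number tested is in brackets. The medians lie between -0.18 (mismatch repair partners) and 0.06 (translesion synthesis), and no gene shown passed the adjusted threshold.

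For each member, the genes with the most similar profile were sought among 8724 other genes with a mean of at least 100 normalized counts. Likeness was the root mean square difference of their log2 deviations over the 5 libraries. Genes named as predicted, clones, pseudogenes or small RNAs were passed over when the nearest were named. Msh3, which encodes another mismatch recognition subunit, was second nearest to Exo1 (0.058), after the ribosomal protein gene Rpl41 (0.057). Polh lay nearest to Nop56 (0.027), a nucleolar protein gene, and Tacc3 (0.036), a spindle protein gene. Ung lay nearest to Slc7a6 (0.033) and Tmem128 (0.047), and Msh6 to Stam2 (0.029) and Ywhaq (0.031). Apex1 lay nearest to Btbd9 (0.018) and Fgfr1op (0.041), Apex2 to Dnmbp (0.050) and Galnt12 (0.058), and Pms2 to Mgme1 (0.016) and Mks1 (0.027). With 5 libraries such matches are common: between 16 (Ung) and 183 (Msh6) genes, those passed over included, lay within 0.10 of a member.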

How the data were processed

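RNA of the sorted cells was amplified before sequencing (Ovation RNA-Seq System V2), per the labels' protocols. Per the submitters' processing notes, the build was mm9 and the tools included TopHat2 2.0.4, Cufflinks 2.0.2 and CASAVA 1.8.2. How reads were counted and scaled, on which annotation and whether by strand, is not given in the sources used here. In 1 table the authors deposited a normalized signal per gene and library, a read count divided by 1 factor per library. Divided by the library's smallest value, 100% of values in 4 libraries and 99.99% in DKO replicate 2 came out whole (within 0.01), so reads were recovered for depth and for the count-based alternatives.

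Values were tested with limma 3.58.1 (R 4.3.3) on log2(value + 1), with a mean-variance trend, for genes with a mean of at least 10, two-sided; p-values were Benjamini-Hochberg adjusted and called under 0.05. Fold changes on this scale understate those of low genes. Residual degrees of freedom were 3. EdgeR 4.0.16 and DESeq2 1.42.0 were run on the recovered reads as alternatives, beside other pseudocounts, minimum values, scalings and left-out libraries. Tested on simulated data for this comparison (13242 genes, 5 runs of 200 changed genes), limma called 0.872% of 2-fold, 34.5% of 4-fold and 72.2% of 8-fold changes and 28 of 65210 unchanged genes.

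Members and lists were chosen with earlier results of these data known, so lists are described by counts and medians only. Named genes are the members, Relb and Nfkb2, the 4 tested genes per list with the smallest p, and the 2 nearest profiles with a proper gene name per member. Cr2 (a repeated name) and Hbb-b1 (no match) were left out of the marker lists. Further genes of the pathway are not reported here. Lengths, overlaps and promoters come from GENCODE M21 and RefSeq GRCm38.p6.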

Additional observations from a re-analysis of the deposited data

How the results depend on the processing

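None of the 7 members passed the adjusted threshold under any of the 17 alternatives, with adjusted p from 0.664 (Msh6 without WT replicate 2) to 1. Apex2, Msh6 and Pms2 kept their sign in all 17. In Apex2 and Pms2, whose groups did not overlap, leaving out libraries could not change it. In any gene, other minimum values and a robust variance fit cannot alter the fold change. The block on replicate number gave the members the same fold changes as leaving out WT replicate 3. The other members changed sign only where libraries were left out. Ung was 0.046 without DKO replicate 1 and 0.017 without both DKO replicate 1 and WT replicate 2, and Exo1 0.25 and 0.18. Apex1 was -0.014 without WT replicate 2 and -0.11 without both, and Polh was -0.21 without WT replicate 2 and -0.23 without DKO replicate 2. Members with a higher mean in DKO numbered 2 (without WT replicate 2) to 6 (without DKO replicate 1), and their median ran from -0.23 to 0.25. Over the fits that leave out 1 library, Ung ran from -0.69 to 0.046, Apex1 from -0.014 to 0.30, Msh6 from -0.51 to -0.07, Exo1 from -0.61 to 0.25 and Polh from -0.23 to 0.32. Where 1 DKO library is left, it is assumed to vary like the WT libraries.

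Over all genes, limma called 0, with 489 higher and 314 lower in DKO at an unadjusted p under 0.05; edgeR called 0, with 445 and 303. DESeq2 called 29 (16 higher and 13 lower). Leaving out 1 library gave 0 to 1 calls, which were Gm10800 without WT replicate 2 and Serinc3 without DKO replicate 1, both named after their values were seen. With the replicate number as a block limma called 36 genes (14 higher and 22 lower) on 1 residual degree of freedom, none a member. Whether the numbers pair the libraries cannot be told. Deviations of same-numbered libraries correlated over genes at 0.005 for number 1 and -0.28 for number 2. With 2 DKO libraries, the deviations of each mirror those of the other, so these correlations do not decide it. The cause of these differences in calls was not tested. Depth limits Apex1 most, at 73 to 126 reads per library, while Msh6 and Polh had at least 2979 in every library.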
